A study of Mus musculus with 28 samples.

Results

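The enteroendocrine cells of the mouse colon were followed here through 8 genes: the granule proteins Chga and Chgb, the serotonin enzyme Tph1, and the peptide hormones Gcg, Pyy, Insl5, Nts and Sst. They were chosen by name, as the probe sets that the authors' deposited table lists under CHGA, CHGB, TPH1, GCG, PYY, INSL5, NTS and SST. Each of the 8 had 1 probe set, so 8 of the 14123 genes tested and 8 of the 45101 probe sets of the value table are described. All 8 lay within the authors' table, and no filter on low values removed any of them.

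Enteroendocrine cells are scattered hormone-secreting cells of the gut lining that arise from the crypt like the other epithelial cells. Enterochromaffin cells make serotonin, L cells make proglucagon peptides, peptide YY and, in the distal colon, insulin-like peptide 5, N cells make neurotensin and D cells make somatostatin. They store their products in dense-core granules that hold chromogranins, and they sense nutrients and microbial metabolites and act on motility, secretion, appetite and neighbouring endocrine cells.

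RNA was measured on Affymetrix arrays in the distal and the proximal colon of female C57BL/6J mice. Treated mice received the carcinogen azoxymethane (AOM), 10 mg/kg into the abdominal cavity, and 96 h later the first course of drinking water with 2.5% dextran sulfate sodium (DSS), a sulfated polymer that damages the gut epithelium. A DSS cycle lasted 5 days and was followed by 14 days of water. Late mice went through 4 cycles and were killed on day 120, early mice went through 2 cycles and were killed on day 42, and untreated mice received neither agent. The arrays fell into late distal (n = 6), late proximal (n = 4), early distal (n = 3), early proximal (n = 3), untreated distal (n = 6) and untreated proximal (n = 6) groups. The design text speaks of 3 or more animals as biological replicates but ties no array to an animal, so arrays of the same state may share a mouse and p-values measure the spread between these samples. Per the same text, dysplasia was seen in early mice, late mice also had intramucosal carcinoma in the distal colon, and lesions were absent from the proximal colon. No age is given for any group, and the samples are tissue, not sorted cells. Values are log2 expression, SD is the spread of a group, SE belongs to a log2 difference and comes from limma's moderated variance, and "called" means a Benjamini-Hochberg adjusted p under 0.05 over the 14123 genes.

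The median of an array ranged from 6.61 to 6.80, and precision is limited by the small number of arrays. A pair of untreated arrays went against their region label. The array labelled untreated proximal 1 had a mean posterior Hox level of 8.71, where every other proximal array lay at or below 7.10, and the array labelled untreated distal 3 had 5.81, where every other distal array lay at or above 8.28. Proximal and anterior Hox genes went the other way, at 6.22 in untreated proximal 1 and 10.58 in untreated distal 3. The groups below follow the labels, and results are given with and without these 2 arrays. They were singled out from values of these same data, in which their Nts and Insl5 also lay with the opposite region. Adjusted p-values without them, above all those of Nts and Insl5, are thus a description and no independent test. Pancreatic acinar genes were high on 6 arrays (late distal 2, 3 and 5, early distal 3, untreated distal 1 and untreated proximal 1). The values of the 6 early arrays carry more decimals than the others, and if they are averages, which the labels do not say, their spread is that of averages.

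The promoters of 5 of the genes are shown: Chgb, Gcg and Sst as examples of the genes that fell in late distal colon, and Nts and Insl5 because they differ between the regions in opposite directions. Each sequence is the 250 bases before the RefSeq transcription start in GRCm38.p6. The positions are chr2:132781392-132781641 on the plus strand for Chgb, chr2:62483654-62483903 on the minus strand for Gcg, chr16:23890845-23891094 on the minus strand for Sst, chr10:102490419-102490668 on the minus strand for Nts and chr4:103026729-103026978 on the minus strand for the second of 2 listed Insl5 starts. Capitals mark matches, read on both strands, to the cAMP response element TGACGTCA, to the TATA box TATAAA and to the E-box CAGATG.
Chgb: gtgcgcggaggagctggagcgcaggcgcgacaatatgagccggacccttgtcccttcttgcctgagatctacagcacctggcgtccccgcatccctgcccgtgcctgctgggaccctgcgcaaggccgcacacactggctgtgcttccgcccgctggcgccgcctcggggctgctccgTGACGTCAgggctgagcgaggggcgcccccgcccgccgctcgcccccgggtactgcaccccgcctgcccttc
Gcg: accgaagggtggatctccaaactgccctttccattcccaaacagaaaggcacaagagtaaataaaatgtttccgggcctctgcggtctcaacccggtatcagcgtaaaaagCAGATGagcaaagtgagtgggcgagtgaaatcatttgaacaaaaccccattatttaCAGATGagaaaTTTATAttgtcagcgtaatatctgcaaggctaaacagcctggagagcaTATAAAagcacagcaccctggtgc
Sst: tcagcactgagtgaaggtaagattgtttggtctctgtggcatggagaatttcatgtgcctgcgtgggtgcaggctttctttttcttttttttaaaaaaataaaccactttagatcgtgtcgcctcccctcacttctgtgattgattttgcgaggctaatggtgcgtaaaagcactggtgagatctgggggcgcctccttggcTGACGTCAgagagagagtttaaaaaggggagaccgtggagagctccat
Nts: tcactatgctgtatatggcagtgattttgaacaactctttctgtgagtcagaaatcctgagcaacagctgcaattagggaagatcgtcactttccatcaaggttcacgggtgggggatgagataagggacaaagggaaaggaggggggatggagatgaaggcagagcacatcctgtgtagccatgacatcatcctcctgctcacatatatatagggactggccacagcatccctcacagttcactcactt
Insl5: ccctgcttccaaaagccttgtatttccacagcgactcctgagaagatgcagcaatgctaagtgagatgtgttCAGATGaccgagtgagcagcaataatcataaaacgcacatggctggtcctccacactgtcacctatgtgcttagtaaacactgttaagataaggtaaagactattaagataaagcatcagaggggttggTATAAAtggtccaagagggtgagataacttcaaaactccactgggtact
The cAMP response element stood in the promoters of Chgb and Sst, once in each, and in 1.55% of the 32841 mouse promoters of this length. The TATA box stood in Gcg and Insl5 and in 12.4% of all promoters, and CAGATG stood in the same 2 genes and in 14.4% of all promoters. No motif overlapped another. None of the 3 motifs was found in this window of Nts, Chga, Pyy or Tph1. These matches describe the letters alone, and binding of a factor was not measured.

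**Figure D1:**
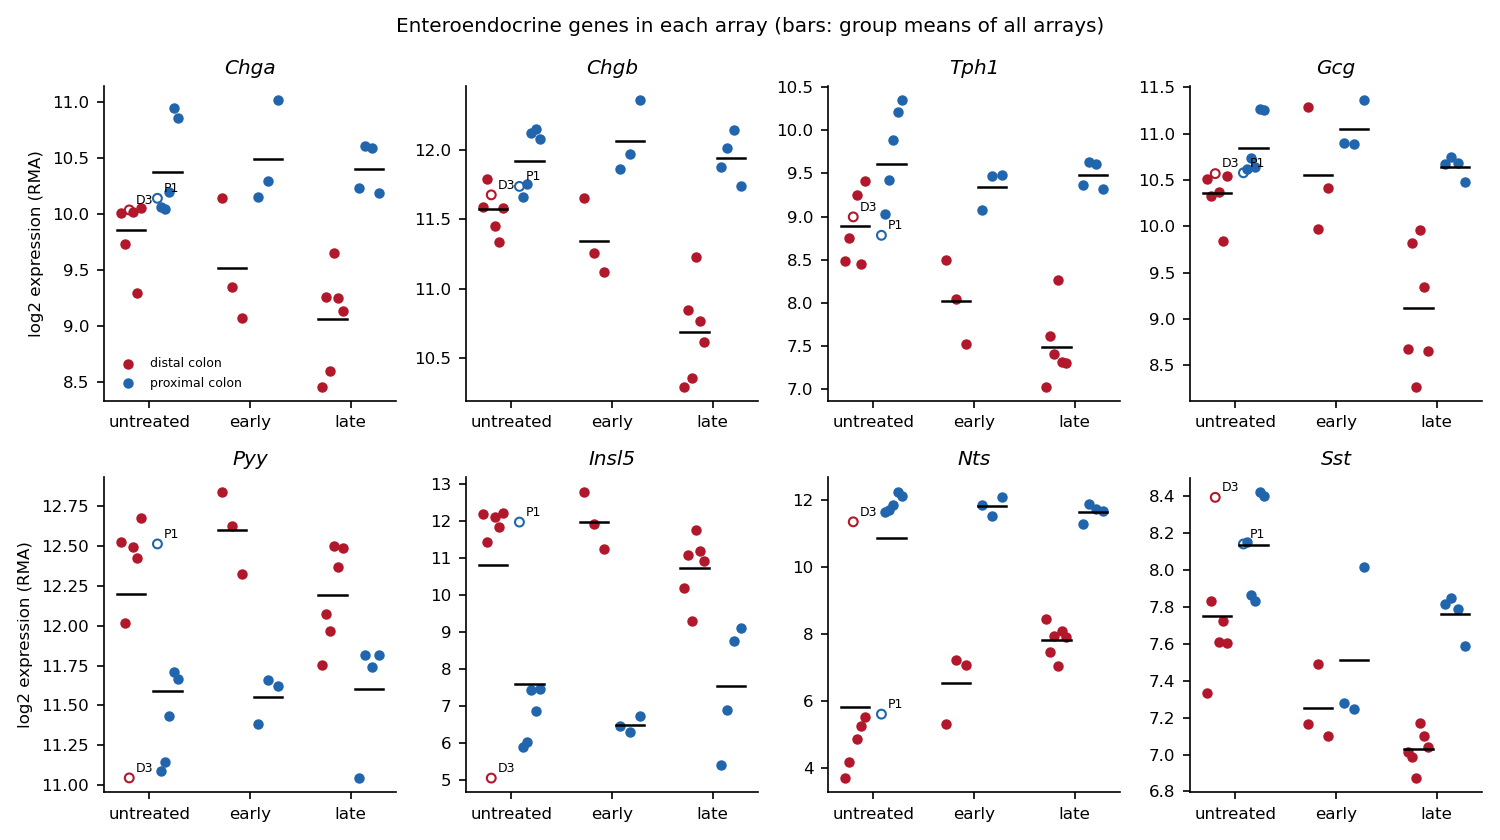
Log2 expression of the 8 genes (y axes) in every array by state (x axes), with distal colon in red and proximal colon in blue; bars are group means of all arrays, and open symbols marked D3 and P1 are the untreated distal 3 and untreated proximal 1 arrays. In late distal arrays Chgb, Tph1 and Sst lie below every untreated distal array, while D3 and P1 lie with the opposite region in Nts and Insl5.

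The first comparison asked how the hormones differed along the colon. Nts, the neurotensin gene of N cells, was lower and Insl5 higher in the distal than in the proximal colon, called in all 3 states. In the untreated colon, Nts was listed at 3.70, 5.07 and 11.35 in the distal arrays and at 5.61, 11.78 and 12.25 in the proximal arrays (lowest, median and highest, n = 6 each). The 11.35 and the 5.61 belong to untreated distal 3 and untreated proximal 1. Without them the distal arrays ended at 5.52 and the proximal arrays began at 11.65, with no overlap. The distal minus proximal difference of Nts was -5.05 ± 0.99 (SE; adjusted p = 0.0047) with all arrays and -7.21 ± 0.33 (adjusted p = 1.6e-13) without the 2. The untreated distal level of Nts lay near 4.11, the median of probe sets outside the authors' table, so the size of this difference is uncertain.

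Insl5, which codes for a relaxin-family peptide of colonic L cells, ran the other way. In the untreated colon it stood at 5.05, 11.96 and 12.21 in the distal arrays and at 5.89, 7.15 and 11.96 in the proximal arrays (lowest, median and highest). The untreated distal 3 array gave the lowest distal value and untreated proximal 1 the highest proximal one. Without them Insl5 lay at 11.44 or more in every distal array and at 7.45 or less in every proximal array. The difference was 3.20 ± 1.01 (adjusted p = 0.044) with all arrays and 5.22 ± 0.53 (adjusted p = 4.2e-08) without the 2. Pyy, the other L-cell hormone, was listed at 11.04, 12.46 and 12.68 in untreated distal arrays and at 11.09, 11.55 and 12.51 in untreated proximal arrays. Its difference was 0.61 ± 0.24 (adjusted p = 0.11) with all arrays and 1.02 ± 0.18 (adjusted p = 1e-04, no overlap) without the 2.

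With all arrays, 2 of the 8 genes were called between the untreated regions, against 9.8% of all genes tested. Without the 2 arrays 5 were called, against 25.3% of all genes tested, since Pyy, Tph1 (-0.91 ± 0.25, adjusted p = 0.0090) and Sst (-0.51 ± 0.14, adjusted p = 0.010) were added. Chga, Chgb and Gcg were not called in either fit, with differences of -0.60 to -0.40 without the 2 arrays and adjusted p-values of 0.066 to 0.12. Untreated distal 3 alone moved the count most: without it 5 genes were called, and without untreated proximal 1 alone 4. The share of all genes called was not counted for these 2 fits. With all arrays the call of Nts held under 40 of the 42 other settings and that of Insl5 under 20.

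In early mice the regional pattern had no overlap for Nts and Insl5. Nts was at 5.33, 7.23 and 7.08 in the 3 early distal arrays and at 11.86, 11.52 and 12.08 in the 3 early proximal arrays. Insl5 was at 12.78, 11.90 and 11.25 in the early distal arrays and at 6.47, 6.29 and 6.72 in the early proximal arrays. Every distal array lay below every proximal array in Nts and above every one in Insl5. The differences were -5.28 ± 1.41 (adjusted p = 0.048) for Nts and 5.49 ± 1.43 (adjusted p = 0.043) for Insl5, and Tph1, at -1.32 ± 0.35 (adjusted p = 0.044), was the third of 3 genes called, against 1.9% of all genes tested. These calls stood close to the threshold. Leaving out 1 array at a time left 0 to 5 genes called, with no share of all genes counted beside it. Without the 2 untreated arrays, which add to the shared variance, 5 genes were called against 6.85% of all genes tested. Nts then had an adjusted p of 8e-09 and Insl5 one of 4.9e-06, and Chgb at -0.72 ± 0.21 and Pyy at 1.04 ± 0.23 joined them (adjusted p = 0.032 and 0.0040).

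In late mice the number of genes called between the regions was highest, a count that also depends on the number of arrays. By size, Nts (-5.28), Insl5 (5.49) and Pyy (1.04) differed more between the regions in early than in late mice. Tph1, Gcg, Chga, Chgb and Sst differed more in late than in early mice. In untreated mice without the 2 arrays, the differences were -7.21 for Nts, 5.22 for Insl5 and 1.02 for Pyy. Of the 8 genes, 6 were called as lower in the late distal than in the late proximal colon and Insl5 as higher, so 7 were called. Of all genes tested, 36.9% were called in either direction and 17.8% were called as lower. Tph1 was at 7.03, 7.36 and 8.27 in the 6 late distal arrays (lowest, median and highest) and at 9.37, 9.63, 9.61 and 9.31 in the 4 late proximal arrays. No array of one region reached the other, and Tph1 had the largest difference among the genes that were not regional markers, -1.99 ± 0.27 (adjusted p = 3.9e-06). Gcg followed at -1.52 ± 0.27, Chga at -1.35 ± 0.25, Chgb at -1.26 ± 0.16 and Sst at -0.73 ± 0.17, with adjusted p-values of 1.5e-06 to 0.0014 and no overlap in any of them. Nts differed by -3.83 ± 1.11 (adjusted p = 0.0085) and Insl5 by 3.19 ± 1.13 (adjusted p = 0.028). Pyy at 0.59 ± 0.27 (adjusted p = 0.091) was called only without the 2 untreated arrays (adjusted p = 0.012), when 8 genes were called against 40% of all genes tested.

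The late distal colon, the tissue with carcinoma per the labels, was then set against its untreated counterpart. Chga, Chgb, Tph1, Gcg and Sst fell, Pyy was not called, and the calls of Nts and Insl5 rested on which untreated arrays were used. The 5 called genes of 8 were all lower, where 48.5% of all genes tested were called and 22.6% were called as lower. The count in either direction is thus near that of all genes. A lower level in whole tissue can stand for a smaller share of endocrine cells among all cells or for less RNA per cell, which these arrays cannot tell apart.

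Tph1, the rate-limiting enzyme of serotonin synthesis in enterochromaffin cells, fell most of the 5. It was listed at 7.03, 7.36 and 8.27 in late distal arrays and at 8.46, 8.88 and 9.41 in untreated distal arrays (lowest, median and highest, n = 6 each). Every late array lay below every untreated array. Tph1 averaged 7.49 ± 0.43 in late distal and 8.89 ± 0.40 in untreated distal colon (SD), a difference of -1.40 ± 0.24 (adjusted p = 4.8e-05), which is 2.64-fold lower in late mice.

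Gcg codes for proglucagon, from which L cells cut the glucagon-like peptides. Its values were 8.27, 9.01 and 9.96 in late distal arrays and 9.84, 10.44 and 10.57 in untreated distal arrays. Only late distal 4, at 9.96, reached into the untreated range, above untreated distal 5. Gcg fell by 1.24 ± 0.24 (SE; adjusted p = 0.00019), which is 2.36-fold lower in late mice, and it spread more widely in late distal (SD 0.69) than in untreated distal arrays (SD 0.27).

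The chromogranins are proteins of the granules in which endocrine cells store their products, and their cell of origin was not measured here. Chgb had 10.29, 10.69 and 11.23 in late distal arrays against 11.34, 11.58 and 11.79 in untreated distal arrays, with no overlap, and it fell by 0.88 ± 0.14 (SE; adjusted p = 2.1e-05). Chga had 8.46, 9.20 and 9.65 in late distal arrays against 9.30, 10.02 and 10.06 in untreated distal arrays, and the highest late array overlapped the lowest untreated array. Chga fell by 0.80 ± 0.22 (SE; adjusted p = 0.0043), close to Chgb.

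Sst codes for somatostatin, an inhibitor of other hormone cells that D cells and enteric neurons make. It stood at 6.87, 7.03 and 7.17 in late distal arrays and at 7.34, 7.67 and 8.40 in untreated distal arrays. The late arrays lay in a narrow band (SD 0.10) below every untreated array. Sst fell by 0.72 ± 0.15 (SE; adjusted p = 0.00037) with all arrays and by 0.59 ± 0.14 (adjusted p = 0.0011) without the 2, untreated distal 3 holding the highest value.

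Nts stood at 7.03, 7.94 and 8.45 in late distal arrays, against 3.70, 5.07 and 11.35 in untreated distal arrays. All 6 late arrays lay above the untreated arrays other than untreated distal 3. With all arrays the difference was 2.00 ± 0.99 (adjusted p = 0.097, not called). When the 2 arrays were left out, Nts rose by 3.11 ± 0.32 (adjusted p = 5.3e-08, no overlap). The untreated distal level lay near the background, so the size of this rise is uncertain. The late distal arrays ended at 8.45, below the proximal arrays other than untreated proximal 1, which began at 11.29.

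Insl5 stood at 9.29, 10.99 and 11.76 in late distal arrays, against 5.05, 11.96 and 12.21 in untreated distal arrays. Its difference was -0.07 ± 1.01 (adjusted p = 0.96) with all arrays. It fell by 1.22 ± 0.51 (adjusted p = 0.047) once the 2 were left out, with overlapping arrays, and that call was lost when levels were also scaled to epithelial genes (adjusted p = 0.063). Pyy stood at 11.75, 12.22 and 12.50 in late distal arrays, against 11.04, 12.46 and 12.68 in untreated distal arrays. Its difference was -0.01 ± 0.24 (adjusted p = 0.99, 95% interval -0.50 to 0.49) with all arrays and -0.24 ± 0.17 (adjusted p = 0.25, interval -0.58 to 0.11) without the 2. Without the 2 arrays 7 of the 8 genes were called, against 51.3% of all genes tested.

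**Figure D2:**
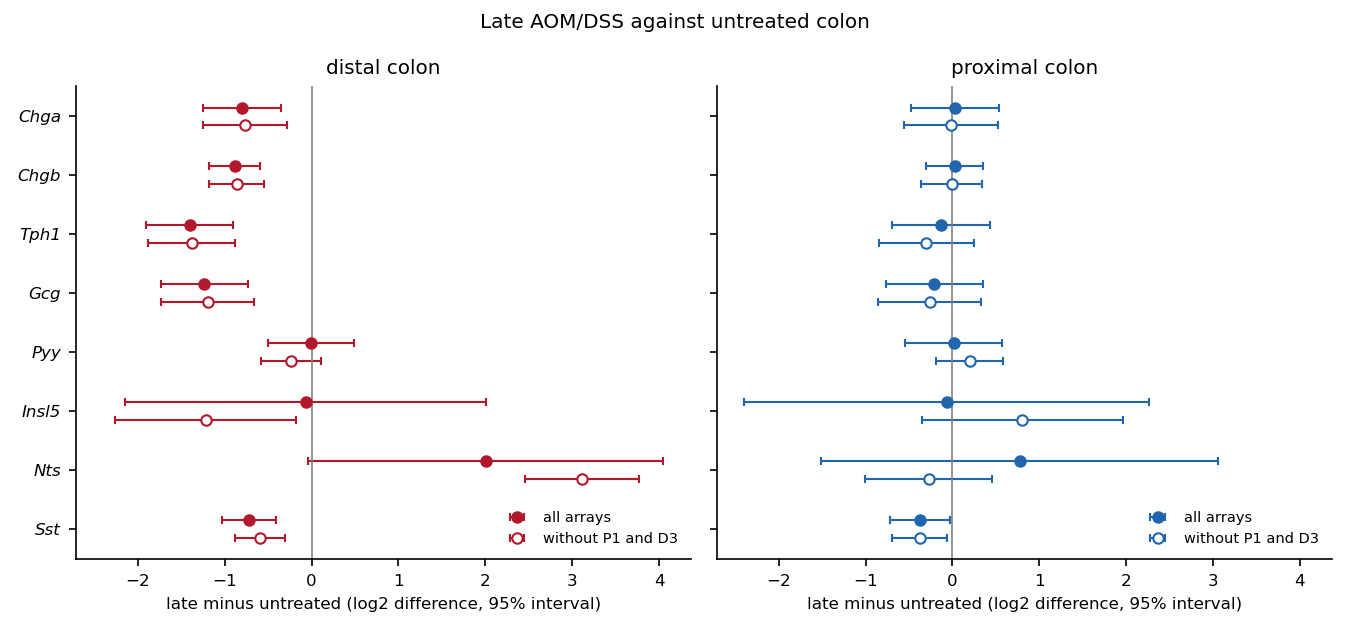
Late minus untreated log2 difference of each gene (x axis, with 95% intervals) in distal colon (left) and proximal colon (right); filled points use all arrays and open points leave out untreated proximal 1 (P1) and untreated distal 3 (D3). In distal colon Chga, Chgb, Tph1, Gcg and Sst lie below 0 in both fits and the Nts interval clears 0 only without P1 and D3, while all proximal differences lie between -0.38 and 0.80.

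The late distal arrays differed among themselves. Late distal 4 had the highest level of the 6 in Chga, Chgb, Tph1, Gcg, Pyy, Insl5 and Sst and the lowest in Nts. It also had the highest mean level of absorptive colonocyte genes (11.92, against 10.64 to 11.51 in the other 5) and of enteric neuron and glia genes (6.61, against 6.00 to 6.47). Late distal 1 and late distal 3 had the lowest levels of Chga, Chgb and Insl5.

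Markers of other cell types were read beside these genes in late distal colon, where 48.5% of all genes tested were called, and their part in the result was not tested. Of the 8 leukocyte genes measured, 8 rose, and the mean of the list ranged from 10.85 to 11.15 in late distal arrays and from 9.17 to 9.78 in untreated distal arrays. Of the 11 neuron and glia genes 9 fell (list means of 6.00 to 6.61 in late distal and 7.05 to 7.38 in untreated distal arrays), as did 7 of the 9 absorptive colonocyte genes (10.64 to 11.92 against 12.10 to 12.35). Of the 8 general epithelial genes 3 fell and 1 rose, with list means of 11.37 to 11.68 in late distal and 11.61 to 11.92 in untreated distal arrays. Of the 6 goblet cell genes 3 fell, and of the 7 smooth muscle genes 6 fell. The shares of goblet cell and general epithelial genes called are near that of all genes. After each array was set relative to those epithelial genes, which put the median difference of all genes at 0.20, the 5 genes were all still called, at -1.20 (Tph1), -1.04 (Gcg), -0.68 (Chgb), -0.60 (Chga) and -0.52 (Sst). Pancreatic islets also make Gcg, Sst and chromogranins. Of 10 islet genes listed 4 were measured here (Iapp, Ppy, Pdx1 and Nkx6-1), insulin not among them. Iapp and Ppy are also among the other gut hormones listed, so this list cannot tell islet from gut endocrine RNA. The mean of the islet list ranged from 6.04 to 6.86 in late distal and from 5.47 to 7.03 in untreated distal arrays. Without the 6 arrays with pancreatic acinar transcripts the 5 genes were called as well, at -0.75 (Chga, adjusted p = 0.043) to -1.44 (Tph1, adjusted p = 0.00070).

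The same question was asked of the early distal colon, after 2 cycles. With all arrays limma called 0 of the 8 genes, where 11.3% of all genes tested were called, and 2 genes had an unadjusted p under 0.05. These were Tph1, at 8.50, 8.04 and 7.52 in the early arrays against 8.46, 8.88 and 9.41 in untreated arrays (lowest, median and highest), and Sst. The differences were -0.87 ± 0.30 for Tph1 (adjusted p = 0.061) and -0.50 ± 0.19 for Sst (adjusted p = 0.085). Without the 2 arrays Nts was called at 1.84 ± 0.38 (adjusted p = 0.0020), 1 of 8 genes against 13.2% of all genes tested, and the range of its early arrays overlapped that of the untreated arrays. Within the early group, early distal 1 had the highest Chga, Chgb, Tph1, Gcg, Pyy and Insl5 and the lowest Nts.

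Between late and early distal colon, Chgb and Gcg fell, 2 of 8 genes against 24.1% of all genes tested, a share near that of all genes. Gcg was at 8.27, 9.01 and 9.96 in late distal arrays and at 11.28, 9.97 and 10.41 in the early distal arrays. The groups did not overlap, though the highest late and the lowest early array nearly met, and Gcg fell by 1.43 ± 0.30 (SE; adjusted p = 0.0012). Chgb fell by 0.66 ± 0.18 (SE; adjusted p = 0.0085), a call that was lost without early distal 1. Without the 2 untreated arrays Nts was also called, at 1.27 ± 0.37 (adjusted p = 0.013), making 3 genes against 27.9% of all genes tested. Across untreated, early and late distal arrays, the mean of Tph1 was 8.89, 8.02 and 7.49 and that of Sst was 7.75, 7.25 and 7.03, whereas that of Gcg was 10.36, 10.56 and 9.12.

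In the proximal colon little was called. Late against untreated proximal colon gave 0 of 8 genes in limma, where 0.0212% of all genes tested were called, and 1 gene, Sst, had an unadjusted p under 0.05. The late minus untreated differences of Chga (0.03), Chgb (0.03), Pyy (0.01), Tph1 (-0.13) and Gcg (-0.21) had 95% intervals that together spanned -0.77 to 0.57. Sst was at 7.81, 7.85, 7.79 and 7.59 in the 4 late proximal arrays and at 7.83, 8.15 and 8.43 in untreated proximal arrays (-0.38 ± 0.17, adjusted p = 0.53). Insl5 spread widely in late proximal colon, with 5.40, 6.90, 8.74 and 9.10. The 2 highest of these arrays, late proximal 3 and 4, also had the highest posterior Hox means of the proximal group apart from untreated proximal 1 (7.10 and 6.52).

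In early proximal colon Sst alone of the 8 was called, where 7.59% of all genes tested were called. It was at 7.28, 7.25 and 8.02 in early proximal arrays against 7.83, 8.15 and 8.43 in untreated proximal arrays, and the highest early array overlapped the untreated range. The difference was -0.62 ± 0.19 (adjusted p = 0.040), and the call was lost without early proximal 1 or 2 or untreated proximal 2, 5 or 6, with adjusted p-values of up to 0.22 over all settings. Late against early proximal colon gave 0 of 8 genes in limma and 0 at an unadjusted p under 0.05, where 0.666% of all genes tested were called.

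Whether the late response differed between the regions was tested by an interaction term, distal minus proximal. Chgb (-0.91 ± 0.22, adjusted p = 0.0044), Tph1 (-1.27 ± 0.37, adjusted p = 0.017) and Gcg (-1.03 ± 0.37, adjusted p = 0.047) had a more negative difference in the distal than in the proximal colon. These were 3 of 8 genes, against 19.4% of all genes tested. Chga at -0.83 ± 0.33 (adjusted p = 0.079) and Sst at -0.34 ± 0.23 (adjusted p = 0.30) were not called, so a regional difference was not shown for them. The call of Gcg held under 15 of the 42 other settings, that of Chgb under 41 and that of Tph1 under 40. Without the 2 arrays Gcg was no longer called (-0.94 ± 0.39, adjusted p = 0.082) and Nts was (3.39 ± 0.47, adjusted p = 2.7e-05), with Chgb and Tph1 still called, 3 genes against 23% of all genes tested. The early response differed between the regions for 0 of 8 genes in limma, with 0% of all genes tested called and 0 of the 8 at an unadjusted p under 0.05.

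In the authors' deposited table, whose signed fold change is untreated over treated, the late distal folds were 2.64 for TPH1, 2.36 for GCG, 1.85 for CHGB, 1.74 for CHGA and 1.65 for SST, each higher in untreated mice. The table gives NTS at -4.01, higher in late mice, with a step-up p of 0.13.

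The machinery that makes and runs endocrine cells moved in late distal colon as well, read beside 48.5% of all genes tested as called and a median difference of 0.004 over all genes. Of the 10 enteroendocrine transcription factors measured, 8 fell and 1 rose, with a median of -0.89. Neurod1, which drives the maturation of endocrine precursors, averaged 6.16 ± 0.42 in late distal and 7.50 ± 0.13 in untreated distal colon (SD) and fell by 1.34 ± 0.18 (SE; adjusted p = 2.2e-06). Insm1, a repressor that endocrine precursors need, fell by 1.08 ± 0.17 (SE; adjusted p = 2e-05). Etv1 fell by 1.46, and Isl1 rose by 1.42 ± 0.42 (SE; adjusted p = 0.0075) with a wide spread in untreated distal arrays (SD 1.24).

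Of 22 genes of hormone processing and granules, 14 fell and 3 rose, with a median of -0.63. Rab3c (-1.53), Snap25 (-1.42) and Scgn (-1.19), which act in vesicle trafficking, docking and calcium sensing, fell, and neurons use Snap25 too. Stx1a, a membrane partner of Snap25 in exocytosis, averaged 9.95 ± 0.56 in late distal and 7.25 ± 0.56 in untreated distal colon and rose by 2.70 ± 0.26 (SE; adjusted p = 9e-09).

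Of 13 genes of serotonin synthesis, transport, receptors and breakdown, 9 fell and 3 rose, with a median of -0.75. The serotonin transporter Slc6a4 fell by 1.93 ± 0.42 (SE; adjusted p = 0.00054), the monoamine oxidase Maob by 2.06 ± 0.21 (SE; adjusted p = 2.2e-08) and the receptor Htr4 by 1.79 ± 0.31 (SE; adjusted p = 4.9e-05). The vesicular monoamine transporter Slc18a1, which loads serotonin into granules, went against Tph1. It averaged 10.06 ± 0.51 in late distal and 7.69 ± 0.25 in untreated distal colon and rose by 2.37 ± 0.23 (SE; adjusted p = 1e-08). Slc18a2, the other vesicular monoamine transporter listed, went with Tph1. Its mean was 6.87 ± 0.37 in late distal and 7.75 ± 0.28 in untreated distal colon (SD).

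Of 11 other gut hormones 3 fell and 1 rose, with a median of -0.07. Guca2a, the guanylin precursor, fell by 0.87, the neuropeptides Nmu by 2.12 and Vip by 0.53, and Npy rose by 1.56. Of 9 nutrient and microbial sensing receptors 3 fell (Olfr78 by 1.41, the cannabinoid receptor Cnr1 by 1.15 and the glucose transporter Slc5a1 by 0.99) and Trpa1, an irritant-sensing channel, rose by 1.08. Of 7 receptors of the hormones 5 fell and none rose, among them the neuropeptide Y receptor Npy1r by 1.30, the peptidase Dpp4, which cuts glucagon-like peptides and peptide YY, by 0.78, and the somatostatin receptors Sstr2 by 0.67 and Sstr4 by 0.62. Each of these list counts moved by at most 1 gene when the 2 arrays were left out.

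**Figure D3:**
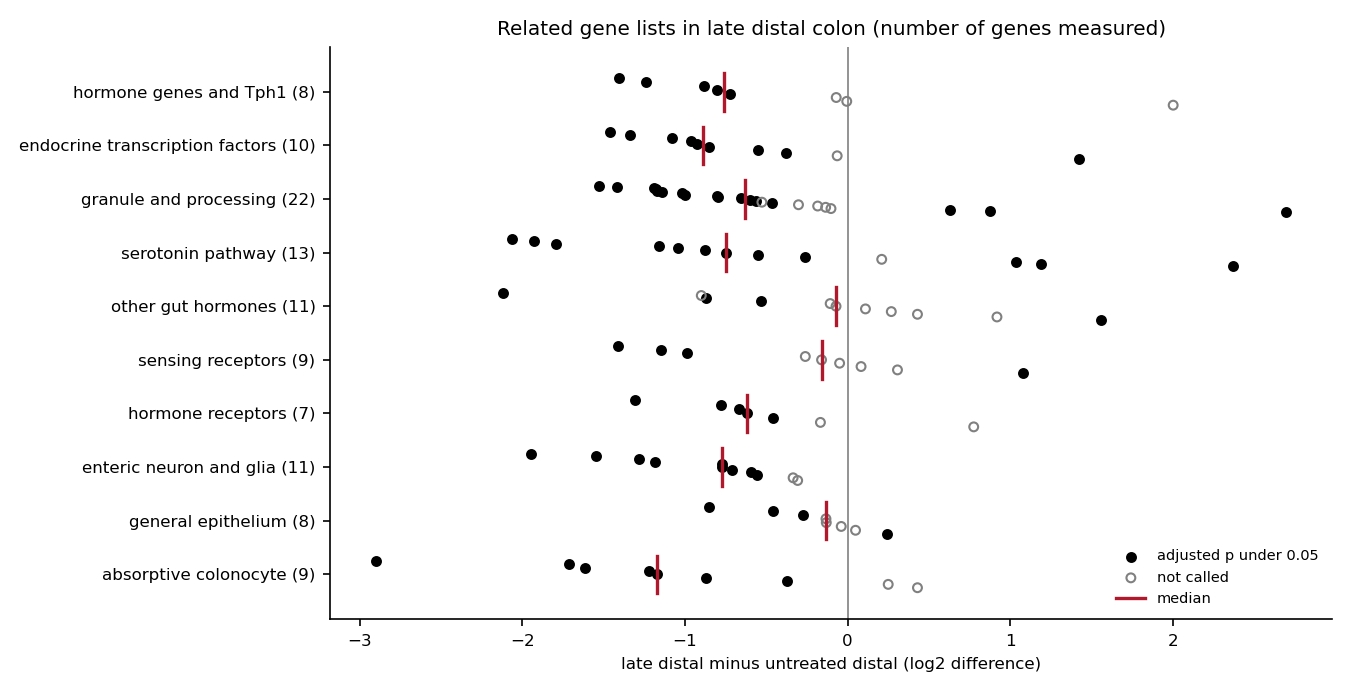
Late distal minus untreated distal log2 difference (x axis) of each gene in the 8 described genes, in the related lists and in lists of other cell types, with the number of genes measured in brackets; filled points were called and red bars are medians. The medians of endocrine transcription factors (-0.89), granule genes (-0.63) and serotonin genes (-0.75) lie near those of neuron and glia (-0.77) and above that of absorptive colonocyte genes (-1.17), and Stx1a (2.70) and Slc18a1 (2.37) stand far to the right.

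The same lists were read in the interaction term, where 19.4% of all genes tested were called. Of the 22 granule genes 8 had a more negative difference in distal colon and 2 a more positive one, of the 10 transcription factors 3 and 1, and of the 13 serotonin genes 4 and 2. In early distal colon, where 11.3% of all genes tested were called, 4 granule genes fell and 1 rose, 2 serotonin genes fell and 2 rose, and no transcription factor was called.

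The levels of each gene ordered the groups as follows. Tph1 had its mean lowest in late distal colon (7.49), then early distal (8.02), untreated distal (8.89), early proximal (9.34), late proximal (9.48) and untreated proximal colon (9.61), and no pair of the proximal groups was called apart. Chga and Chgb held the same order of distal groups below all proximal groups, with proximal means of 10.38 to 10.49 for Chga and 11.92 to 12.06 for Chgb. Gcg was lowest in late distal colon (9.12), and its other 5 group means lay between 10.36 and 11.05. Pyy was highest in early distal colon (12.60), with late and untreated distal colon at 12.19 and 12.20 and the proximal groups at 11.55 to 11.61. Sst was lowest in late distal colon (7.03) and highest in untreated proximal colon (8.14).

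Likeness of pattern was measured by Pearson correlation over the 28 arrays, which share groups and regions, as a description. Chga was most like Chgb (r = 0.945) and Tph1 (0.919). Gcg was most like Chgb (0.924) and Neurod1 (0.921). Pyy was most like Insl5 (0.942), and Ppy, another member of its peptide family, was among its 4 nearest (0.926). Insl5 was nearest to Thbs4 (0.990) and Tgm3 (0.985), and Nts to Paqr8 (0.978), Padi2 (0.970), Acox2 (0.964) and Prap1 (0.962). Sst was nearest to Opcml (0.871) and Calb2 (0.853), with Retsat (0.861) between them; Calb2 codes for a calcium-binding protein of neurons. For the mean of the 8 standardised genes the nearest that is not one of them was Edn2 (0.943), followed by Neurod1 (0.927).

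Nts and Insl5 ran opposite over all 28 arrays (r = -0.907), which holds the difference between the regions. Within the 14 distal arrays other than untreated distal 3, r was -0.686, and within the 12 proximal arrays other than untreated proximal 1 it was 0.258. Nts and Chgb had r = -0.889 in those 14 distal arrays and 0.600 in those 12 proximal arrays. Chgb and Gcg kept a positive r in both, 0.910 in distal and 0.680 in proximal arrays. The distal arrays share the change of state, so these values are no measure within a state. Deviations from the group means, taken over both regions without the 2 arrays, gave other values. There r was -0.115 for Nts and Insl5, -0.432 for Nts and Chgb and 0.801 for Chgb and Gcg.

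**Figure D4:**
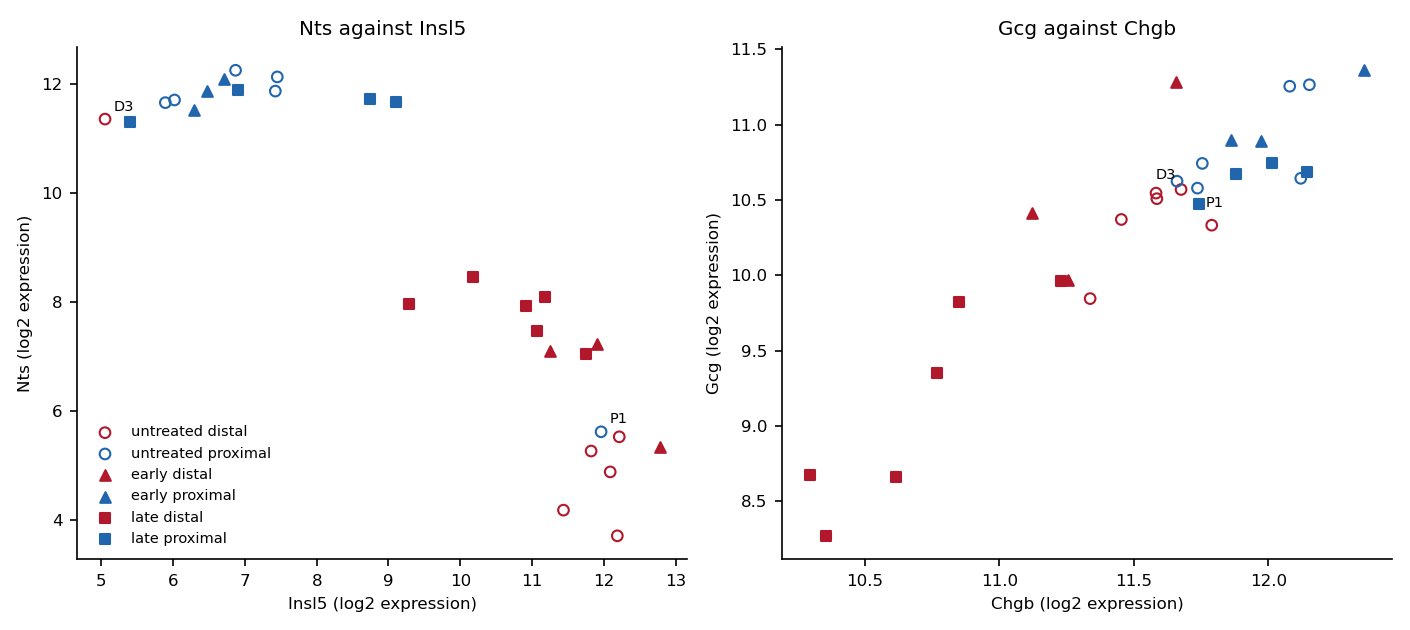
Log2 expression of Nts against Insl5 (left) and of Gcg against Chgb (right) in the 28 arrays, with distal arrays in red, proximal arrays in blue and a marker for each state. Late distal arrays lie between the untreated distal and the proximal arrays in Nts (7.03 to 8.45), the arrays P1 and D3 sit with the opposite region in the left panel, and in the right panel late distal arrays extend to the lower left.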

How the data were processed

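RNA of 28 colon samples was extracted with Trizol, amplified with NuGEN Ovation kits and hybridised with a biotin label, per the labels' protocols. The authors deposited 1 log2 value per probe set and array, made with RMA, which corrects background, normalizes by quantiles and summarises probes; the submitters' processing notes name RMA and Partek 6.5. The authors' deposited table gives, per the file headers, group means, p-values with a step-up adjustment, and a signed fold of untreated over treated, a score that skips the values from -1 to 1. Its group means differed from the means of the deposited columns by at most 0.0051.

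Genes were named by that table through RefSeq symbols, giving 14123 genes, each read from its probe set of highest mean. The tests used limma 3.58.1 in R 4.3.3. One fit of the 6 group means covered the 28 arrays and had no covariates (22 residual and 3.78 prior degrees of freedom), with Benjamini-Hochberg adjustment over the 14123 genes of each of 11 comparisons. The early or late response by region is an interaction term. The named genes were the 8 hormone and serotonin genes, up to 4 called genes of largest difference per related list, the 4 genes most correlated with each of the 8, and the nearest to their mean. One of the correlated genes is not reported here. The members, lists and tests were chosen with earlier results of these data known. The alternatives left out each array, used a replicate block, the groups of a comparison alone, array weights, other variance models, probe-set choices, a level minimum of 6, repeated quantile normalization, scaling to 8 epithelial genes, subsets of untreated arrays, and arrays without pancreatic transcripts (acinar mean over 1 log2 unit above the median array). Tables and figures were made with Python, pandas and matplotlib.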

Additional observations from a re-analysis of the deposited data

Results flagged for a closer look

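Values were singled out where 1 array of a group of 4 to 10 stood apart by Dixon's criterion, or where the late response differed between the regions in the interaction test. Of 32 groups of values tested for such an array 6 had one, and chance alone marks about 1 in 20.

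Of these, 4 belong to the 2 untreated arrays that went against their region label: in untreated proximal 1 Nts was 5.61 and Insl5 11.96, and in untreated distal 3 Nts was 11.35 and Insl5 5.05. The fifth was Gcg in untreated distal 5, at 9.845, the lowest of its group. The sixth was Pyy in late proximal 1, at 11.044, which also had the lowest Insl5 of its group.

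The late response was more negative in the distal than in the proximal colon for Chgb (-0.91, adjusted p = 0.0044), Gcg (-1.03, adjusted p = 0.047) and Tph1 (-1.27, adjusted p = 0.017).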

How the results depend on the processing

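Of 88 combinations of a gene and a comparison, 23 were called and 12 of these kept call and direction under all 42 other settings. No called difference changed sign, and the 147 changes of sign among uncalled differences are left out. The falls of Chga, Chgb, Tph1, Gcg and Sst in late distal colon were among the 12. The choice to leave out untreated proximal 1 and untreated distal 3 came from values of these same data. The setting that also scales to epithelial genes was added after seeing the data. The share of all genes called was counted only with all arrays and without the 2 arrays. The counts below are of the 8 genes alone, and whether they differ from all genes was not tested. Early against untreated distal colon had 3 genes called with array weights, 2 with untreated arrays 4 to 6 alone, and 1 without the 2 arrays, with or without epithelial scaling. Late against untreated proximal colon had 1 with array weights. Early against untreated proximal colon had 0 with its groups alone, all probe sets, epithelial scaling (also without the 2 arrays), untreated arrays 1 to 3 alone, or no pancreatic arrays. Late against early distal colon had 1 with its groups alone or array weights. The untreated regions had 0 with their groups alone or untreated arrays 1 to 3 alone, 1 with trended robust variances or all probe sets, 6 with array weights or untreated arrays 4 to 6 alone, 5 without the 2 arrays and 4 with epithelial scaling as well. The early regions had 0 with all probe sets, 1 with trended robust variances or untreated arrays 1 to 3 alone, 5 with untreated arrays 4 to 6 alone or without the 2 arrays (also with epithelial scaling) and 6 with array weights. The late response by region had 5 with array weights, and 1 with untreated arrays 4 to 6 alone or no pancreatic arrays. Where a set of untreated arrays was used alone, fewer samples entered; the other causes were not tested. Leaving out 1 array gave 0 to 2 genes in early distal, 0 to 1 in early proximal, 1 to 2 between late and early distal colon, 1 to 5 between untreated and 0 to 5 between early regions. In early distal colon the count was 1 without untreated proximal 1 or 6, untreated distal 5, early distal 1 or late distal 4, and 2 without untreated distal 1. Between the untreated regions it was 1 without untreated proximal 2 to 6, untreated distal 1, 2, 4 or 5, early proximal 1 to 3, early distal 2, late proximal 2 or late distal 1, 2 or 5, each left out alone. For the early regions, it was 1 without untreated proximal 3, 5 or 6, late proximal 4 or late distal 1 or 3, it was 0 without early proximal 1, 2 or 3, early distal 2 or 3, late proximal 2 or 3, late distal 2, 5 or 6 or untreated proximal 4, and 5 without untreated distal 3. The labels do not say whether same-numbered regions come from 1 mouse. The deviations of same-numbered arrays correlated at -0.233 to 0.691 over the pairs. The highest were early 1 (0.691), untreated 1 (0.585) and early 2 (0.55), where the best other number reached 0.092, -0.065 and -0.105. In the other pairs, apart from late 1, another number correlated more. Some pairs may share a mouse, which was not tested. Both untreated 1 arrays also had high acinar gene means (11.34 proximal and 11.22 distal), whose part in their correlation was not tested. Used as a replicate block, the number gave 5 genes between the early regions in place of 3. It also changed the call of Tph1 between untreated regions (adjusted p = 0.028), while no other call of the 8 genes changed. With epithelial scaling the median difference of all genes was 0.309 between the late regions, its highest, against 0.028 without. Differences of genes near the background of 4.11 are uncertain in size, and the 3 early arrays per region limit what could be called.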
